A study of Mus musculus with 10 samples.

Results

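Interleukin genes were followed in whole mouse oviducts that lacked the progesterone receptor. They comprised every gene whose symbol in the platform annotation starts with Il and a digit, which gave 76 genes of 19938 named by a single symbol on the arrays. By their known roles, 36 encode ligands, 35 encode receptor chains, 4 encode soluble antagonists or binding proteins, and 1, Il1bos, is a transcript from the opposite strand of Il1b. Where a gene had several probe sets, the brightest stood for it. Il22 and Il4i1 shared their probe sets with a near copy, and Il1r1, Il1rl1, Il2rg, Il11ra1 and Il11ra2 had no probe set named by 1 symbol, so these 7 were not analysed here.

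The samples were 5 pools from PRKO mice, homozygous for a lacZ insertion (PRlacZ) that disrupts both isoforms of the receptor gene Pgr, and 5 pools from heterozygous PR+/- mice, which are fertile and served as controls. Every animal, aged 21 to 23 days at the first injection, received 5 IU of equine chorionic gonadotropin (eCG), which drives follicle growth, and 44 to 47 h later 5 IU of the human hormone (hCG), given to set off ovulation. Oviducts, taken whole 8 h after hCG, came from 3 animals per pool, so each genotype stood for 15 animals and differences between single animals were not seen. The mutation is carried by all cells, the controls also carry 1 disrupted allele, and no pool was taken before hCG.

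Interleukins are secreted proteins through which leukocytes, epithelium and stroma signal to each other. Those of the IL-1 and IL-36 group and the IL-17 group bind receptors that work through adaptor proteins and the factor NF-kappa-B, whereas most others bind paired receptor chains that carry Janus kinases and switch on STAT factors. Many receptors share a chain, and some ligands are held in check by soluble antagonists or by decoy receptors that bind without signalling. Ovulation resembles an inflammatory reaction, and the oviduct receives the fluid and cells that the follicle releases.

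Signal is given throughout as the deposited log2 value of a gene's probe set. It depends on the probes as well as on the transcript, so differences were taken between genotypes, and a gene's mean signal served only to sort genes by level, not to compare transcript amounts. The labels held for the targeted gene, since Pgr lay at 6.31 to 6.39 in PRKO pools, against 7.27 to 7.55 in PR+/- pools. Oviduct epithelial markers were bright. Their mean signal was 6.91 to 9.63 for 5 multiciliated genes and 8.50 to 9.75 for 4 genes listed as secretory (Pax8, Krt8, Krt18 and Epcam). None of either list was called. All 5 smooth muscle markers fell, and their summed linear signal was 4127 to 5391 in PRKO, against 7685 to 8516 in PR+/-. Cyp11a1, which ovarian steroid-producing cells express, stood apart at 7.10 in PRKO replicate 3 and at 7.04 in PR+/- replicate 4, with 3.05 to 4.68 on the other 8 arrays. The interquartile range of an array's gene signals was 2.93 to 3.26 in PRKO and 3.20 to 3.37 in PR+/-.

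Promoters of 2 of the 3 called interleukin genes, Il13ra2 and Il12a, are shown because the manipulated factor, the progesterone receptor, binds DNA at hormone response elements. A called gene is one with an adjusted p under 0.05 in limma, a linear model fitted across all genes, after Benjamini-Hochberg adjustment. Windows of 300 bases, from 250 before to 50 after a RefSeq transcript start (GRCm38.p6), were used for Il13ra2 and for 2 starts of Il12a, and the promoter of the third called gene, Il17ra, was not analysed here. Il13ra2 lies on the minus strand at chrX:147429143-147429442, and the Il12a windows lie on the plus strand at chr3:68690394-68690693 (start 1) and chr3:68691174-68691473 (start 2). Capitals mark TGTTCT or its reverse complement AGAACA, the core of a steroid response element, searched on both strands.
Il13ra2: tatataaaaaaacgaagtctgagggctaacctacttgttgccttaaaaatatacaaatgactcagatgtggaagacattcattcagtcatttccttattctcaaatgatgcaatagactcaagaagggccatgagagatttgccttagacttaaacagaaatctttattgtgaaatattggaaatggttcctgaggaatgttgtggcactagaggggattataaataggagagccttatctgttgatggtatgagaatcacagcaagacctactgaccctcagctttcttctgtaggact
Il12a start 1: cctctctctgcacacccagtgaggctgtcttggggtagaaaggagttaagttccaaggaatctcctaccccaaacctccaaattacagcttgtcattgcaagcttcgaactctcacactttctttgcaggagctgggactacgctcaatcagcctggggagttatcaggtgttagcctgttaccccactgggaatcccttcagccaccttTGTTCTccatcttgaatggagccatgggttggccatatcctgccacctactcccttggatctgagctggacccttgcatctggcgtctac
Il12a start 2: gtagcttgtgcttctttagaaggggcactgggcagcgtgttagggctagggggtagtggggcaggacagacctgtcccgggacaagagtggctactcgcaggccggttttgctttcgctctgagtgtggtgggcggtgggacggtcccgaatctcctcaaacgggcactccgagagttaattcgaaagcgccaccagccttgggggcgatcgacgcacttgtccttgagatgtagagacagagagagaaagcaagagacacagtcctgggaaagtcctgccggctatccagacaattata
The first Il12a window held 1 core, which began 40 bases before the start, and the other windows held 0. Such a core occurred in 19.0% of 32851 windows of this length and in 8 of 71 windows of 59 interleukin genes (11.3%). The full element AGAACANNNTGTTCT, which holds both cores, occurred in 3 of all windows and in 0 of the interleukin windows. A match is a run of letters and not a measured site.

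Among the 76 interleukin genes, 2 rose, 1 fell and 73 did not pass. Il17ra, the shared signalling chain of the IL-17 receptors, rose 1.36-fold, Il12a, a subunit of IL-12, rose by 0.41 on the log2 scale, and Il13ra2, a decoy receptor for IL-13, fell by 0.55 on it. The 3 calls are 3.95% of the members, against 4.96% of all genes tested. Of all genes, 1.09% rose and 3.87% fell, or 349 and 672 genes with each array centred on its median, against 217 and 771 as deposited. The values of the genotypes did not overlap for 3 of 76 members (3.95%) and for 7.2% of all genes. At an unadjusted p under 0.05, 13 members were higher and 4 lower in PRKO, which is 17 of 76. Of all genes 21.1% passed that level, 10.1% higher and 11.1% lower. Counted in either direction, the share of interleukin genes that differed was thus near or under the background of the whole array. By direction at the unadjusted level, a larger share of members than of all genes was higher, and a smaller share lower. Among the 6646 genes of lowest mean signal, which include 48 members, 1148 were higher and 87 lower at that level. Of those 48 members, 8 were higher and 1 lower. With 5 pools a group, the median 95% interval around a member's log2 difference was ± 0.21.

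**Figure D1:**
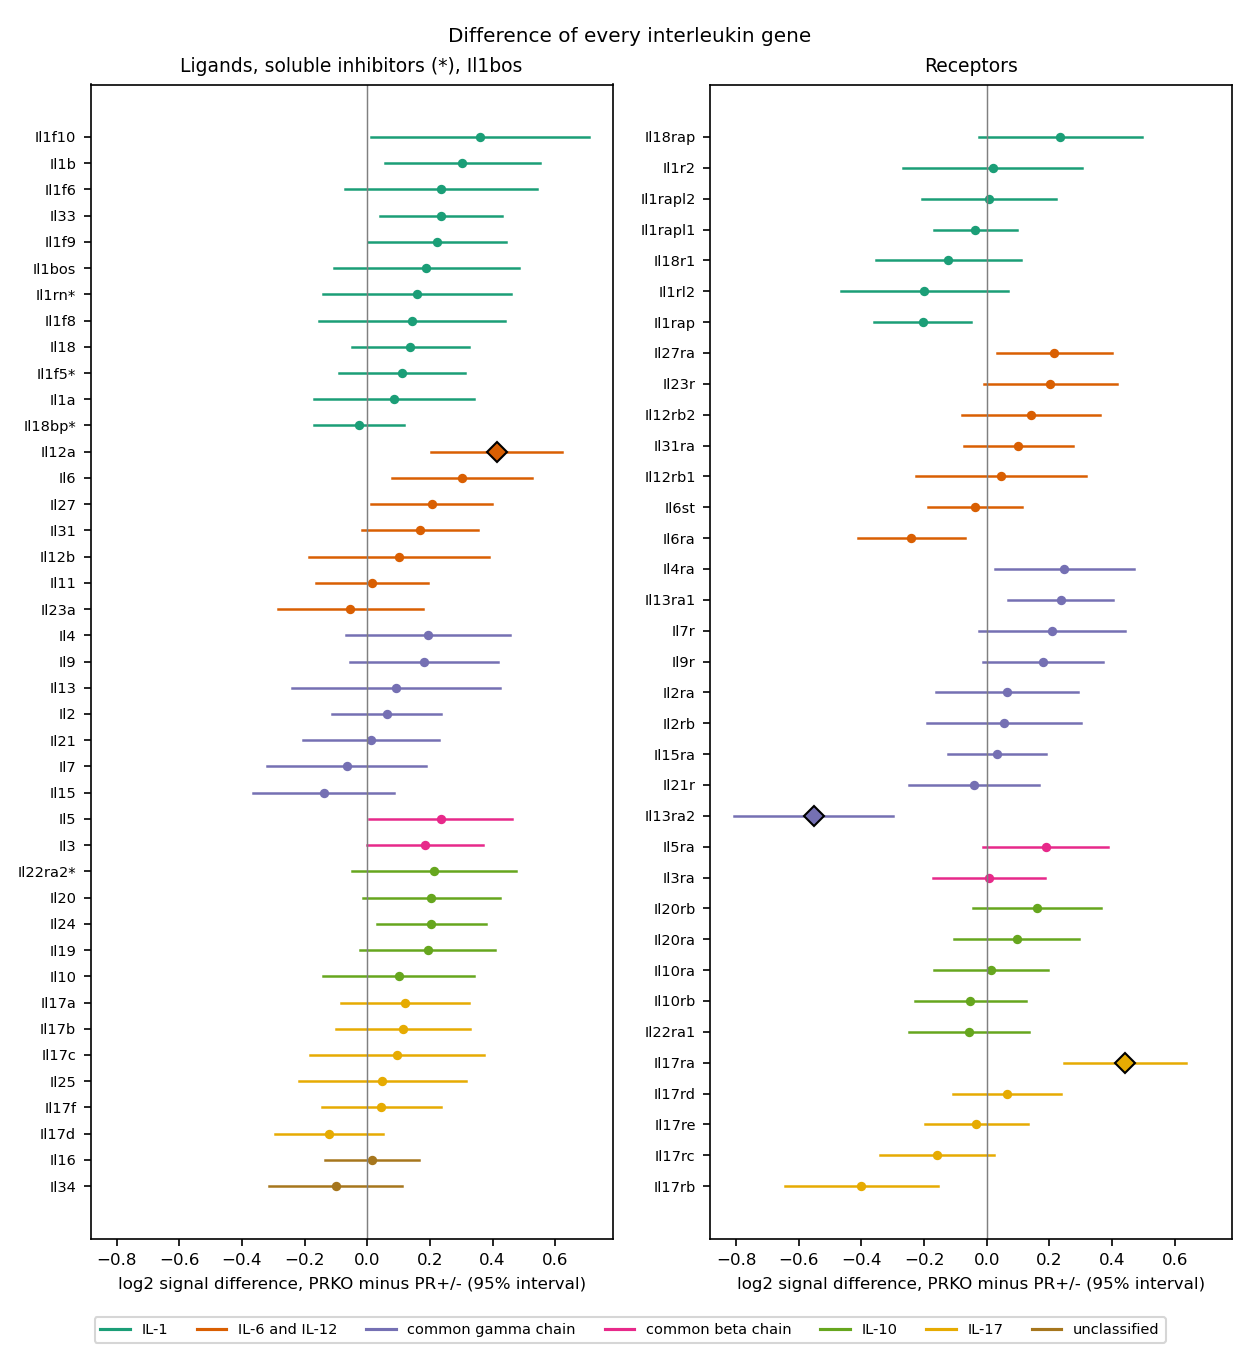
Log2 signal difference, PRKO minus PR+/-, of each of the 76 interleukin genes (points, with 95% intervals from limma as lines), ligands with soluble inhibitors on the left and receptors on the right, coloured by family and ordered within it by size. The 3 large diamonds are the called genes Il12a, Il13ra2 and Il17ra, and most ligands lie right of 0.

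Of 35 receptor genes 1 rose and 1 fell, or 5.71%, which is near the 4.96% of all genes. Il17ra signal was 7.19, 7.10, 6.92, 6.74 and 6.94 in PRKO replicates 1 to 5, against 6.56, 6.58, 6.67, 6.46 and 6.43 in PR+/- replicates 1 to 5. Every PRKO pool lay above every PR+/- pool, the closest pair being PRKO replicate 4 and PR+/- replicate 3. The mean was 6.98 ± 0.18 in PRKO and 6.54 ± 0.099 in PR+/- (SD, n = 5 each), a log2 difference of 0.44 ± 0.091 (SE, limma adjusted p = 0.0115). With both pools highest in ovarian transcripts left out, the difference was 0.44 but Il17ra no longer passed (adjusted p = 0.0567).

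None of the chains that pair with IL-17 receptor A passed. Il17rb, which joins it to bind IL-25, had a signal of 5.67, 6.01, 5.70, 6.08 and 5.71 in PRKO, against 6.31, 5.97, 6.17, 6.17 and 6.54 in PR+/-. PRKO replicates 2 and 4 reached into the PR+/- span, which starts at 5.97. Its log2 difference was -0.40 ± 0.11 and missed the threshold (adjusted p = 0.0599), and it passed where dim genes were removed before adjustment (0.0399 without the dimmest 30%). Il17rc, which binds IL-17A and IL-17F with Il17ra, had a log2 difference of -0.16, Il17re, the partner for IL-17C, one of -0.03, and Il17rd, also known as a brake on growth factor signalling, one of 0.06, with 95% intervals from -0.34 to 0.02, -0.20 to 0.13 and -0.11 to 0.24. The second probe set of Il17rd gave 0.13. None of the 6 ligands of the group passed. Il17a, Il17b, Il17c, Il17f and Il25 had differences of 0.05 to 0.12 and Il17d of -0.12.

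Il13ra2 binds IL-13 tightly with a short intracellular tail and is widely described as a decoy. Its signal was 2.66, 2.65, 2.68, 2.67 and 2.94 in PRKO, against 3.13, 3.43, 3.68, 2.99 and 3.14 in PR+/-. The groups did not overlap, although PRKO replicate 5 came close to PR+/- replicate 4. The mean was 2.72 ± 0.12 in PRKO and 3.27 ± 0.28 in PR+/- (SD, n = 5 each), and the gene fell by 0.55 ± 0.12 on the log2 scale (adjusted p = 0.0148). Its signal in both genotypes lay under 4.09, the 95th percentile of olfactory and vomeronasal receptor genes, and in PRKO near their median of 2.66, so no fold is given.

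The other measured chains that bind IL-4 and IL-13 had differences above 0 and did not pass. Il13ra1, which signals for IL-13, had a signal of 7.63, 7.55, 7.75, 7.80 and 7.55 in PRKO, against 7.42, 7.44, 7.37, 7.55 and 7.31 in PR+/-. All but 1 PR+/- pool, replicate 4, lay under the lowest PRKO pool. Its log2 difference was 0.24 ± 0.078 (adjusted p = 0.102), and it passed after quantile normalization (0.30, adjusted p = 0.0356) and after cyclic loess (0.29, adjusted p = 0.0427). Il4ra, the chain shared by the receptors for both ligands, differed by 0.25 ± 0.10 (adjusted p = 0.188). Across 24 alternative fits its difference ranged from 0.15 to 0.34, and it stayed uncalled in 23 of them. The highest value, and the only call, came without PRKO replicate 4, its lowest PRKO pool at 8.35 (adjusted p = 0.0373). The lowest value came without both PRKO pools of lowest interquartile range (adjusted p = 0.494). The ligands Il13 and Il4 differed by 0.09 and 0.19 and were not called.

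**Figure D2:**
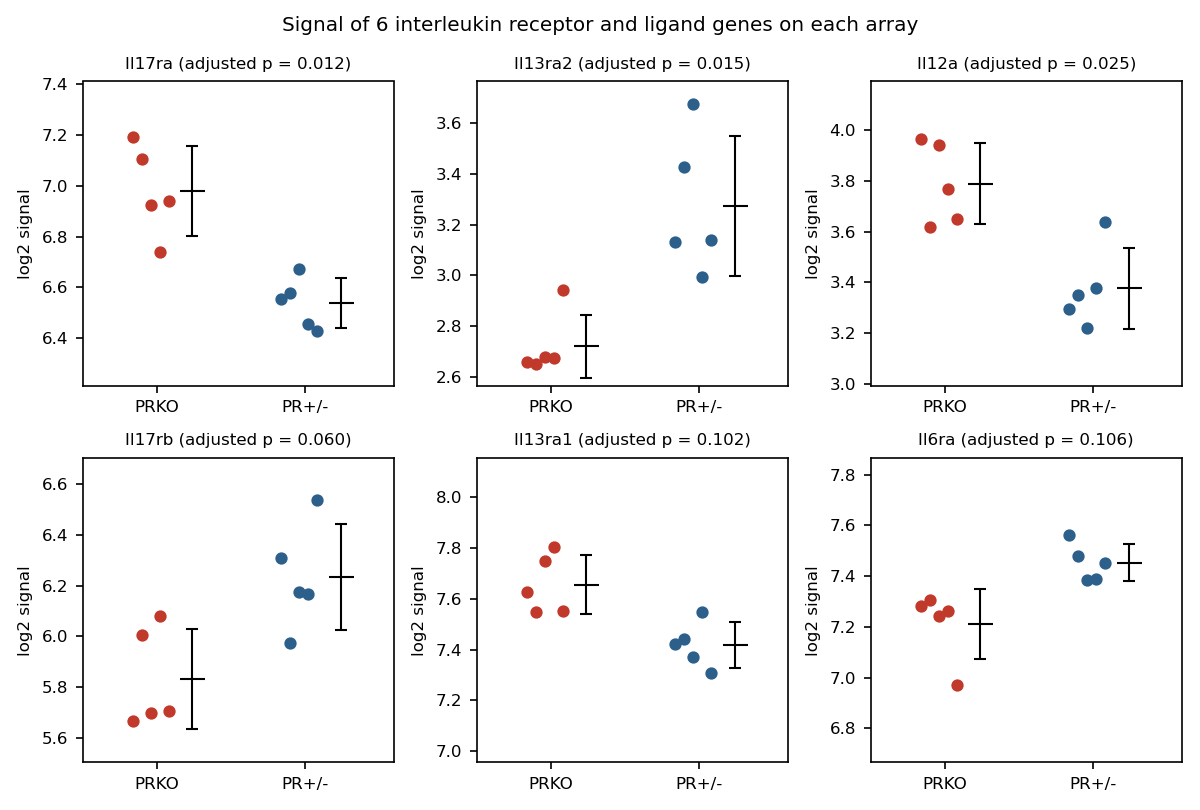
Log2 signal on each array (points) with mean and SD (bars) for PRKO and PR+/- pools, in panels that all span 1.2 log2 units. PRKO pools lie above PR+/- pools for Il17ra and below them for Il13ra2 and Il6ra, while the groups touch or overlap for Il12a, Il17rb and Il13ra1.

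Among 7 receptor chains of the IL-6 and IL-12 family none passed, and 2 had an unadjusted p under 0.05, as did 21.1% of all genes. Il6ra, which binds IL-6, was at 7.28, 7.31, 7.24, 7.26 and 6.97 in PRKO, against 7.56, 7.48, 7.38, 7.39 and 7.45 in PR+/-. Its groups did not overlap, yet the difference of -0.24 ± 0.080 was not called (adjusted p = 0.106). Il6ra passed when the dimmest 50% of genes were left out (0.0493), and with the interquartile range as a term its difference was -0.11 (0.668). Il6st, the gp130 chain through which most of the IL-6 family signals, was at 10.24 ± 0.0935 in PRKO and 10.28 ± 0.0467 in PR+/- (SD, n = 5 each). The 95% interval of its difference was -0.19 to 0.11. Il27ra, the receptor for IL-27, had a difference of 0.22 (adjusted p = 0.166). Il12rb1 and Il12rb2, which bind IL-12, differed by 0.05 and 0.14.

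Of 7 receptor genes of the IL-1 family, 0 passed and 1, Il1rap, the accessory chain of the receptors for IL-1, IL-33 and IL-36, had an unadjusted p under 0.05 (log2 -0.20 ± 0.072, adjusted p = 0.122). Il1rl2, the IL-36 receptor, differed by -0.20, Il18r1 by -0.12 and its partner Il18rap by 0.23 (0.12 without PRKO replicate 5), while the decoy Il1r2 was at 0.02. The 5 receptor chains of the IL-10 family spanned -0.06 to 0.16. Among them Il10rb, which several of its receptors share, differed by -0.05 and Il20rb by 0.16, where the other probe sets of Il20rb gave 0.06 and 0.15. The second probe set of Il22ra1 gave 0.01, against -0.06 in the first. Il3ra and Il15ra differed by 0.01 and 0.03. Mean signal in PRKO was 8.26 for Il10rb, 7.35 for Il20rb, 5.98 for Il22ra1, 6.19 for Il1rl2, 5.57 for Il1rap, 6.17 for Il3ra and 5.67 for Il15ra, against 8.32, 7.19, 6.04, 6.39, 5.77, 6.16 and 5.64 for the same genes in PR+/-. The receptor chains not named did not pass.

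Of 36 ligand genes 1 was called, or 2.78%. Il12a was at 3.96, 3.62, 3.94, 3.77 and 3.65 in PRKO, against 3.29, 3.35, 3.22, 3.38 and 3.64 in PR+/-. PR+/- replicate 5 lay within the PRKO span and the other 4 controls under it. The mean was 3.79 ± 0.16 in PRKO and 3.38 ± 0.16 in PR+/- (SD, n = 5 each), a log2 difference of 0.41 ± 0.097 (adjusted p = 0.0250). This call was the least stable. It was lost after quantile normalization (0.29, adjusted p = 0.101) and cyclic loess (0.31, 0.0731), and on leaving out PR+/- replicate 1, 2, 3 or 4, or PRKO replicate 1 or 3 (adjusted p 0.0505 to 0.0714). Il12b, the second subunit of IL-12, and Ebi3, which joins Il12a in IL-35, had differences of 0.10 and -0.15.

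Ligands of the IL-1 family all had differences above 0 in this scaling, from 0.09 to 0.36, and 0 of 8 was called. At an unadjusted p under 0.05, 4 of the 8 were higher in PRKO, against 10.1% of all genes. Among the 6646 genes of lowest mean signal, which include 5 of these 8, 1148 were higher and 87 lower at that level. The mean signal of Il1a, Il1f6, Il1f9 and Il1f10 lay under 4.09, the olfactory 95th percentile. Il1b, the inflammasome-processed cytokine, was at 4.34, 4.51, 4.44, 4.26 and 4.94 in PRKO, against 4.01, 4.16, 4.30, 4.31 and 4.19 in PR+/-. PRKO replicate 5 stood highest and the rest overlapped in part (log2 0.30 ± 0.12, 95% interval 0.06 to 0.55), and without that pool the difference of Il1b was 0.19. Il33, an alarmin kept in nuclei, differed by 0.24 ± 0.091 (adjusted p = 0.154) and Il18 by 0.14. Il1f6, Il1f8 and Il1f9, the IL-36 ligands, differed by 0.24, 0.14 and 0.22, and Il1f10 by 0.36 (95% interval 0.01 to 0.71). Without PRKO replicate 5 the difference was 0.22 for Il1f10 and 0.16 for Il1f6, without PR+/- replicate 1 it was 0.24 for Il1f10, and without PRKO replicate 2 it was 0.37 for Il1f6. With the interquartile range as a term it was 0.09 for Il1b, 0.02 for Il1f10 and -0.02 for Il1f6. Of the soluble restraints, the receptor antagonist Il1rn differed by 0.16 (0.01 without PRKO replicate 5), the IL-36 antagonist Il1f5 by 0.11 and the IL-18 binding protein gene Il18bp by -0.03. Il1bos, which overlaps Il1b on the other strand, differed by 0.19.

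Of the remaining ligands, Il6 was at 2.10 to 2.46 in PRKO, against 1.74 to 2.22 in PR+/-, with a difference of 0.30 (adjusted p = 0.116). Il27 differed by 0.21, Il24 by 0.20 and Il5 by 0.23, each with an unadjusted p under 0.05 and an adjusted p of 0.167 to 0.226. Il16, a chemoattractant for CD4+ cells, and Il34, a second ligand of the Csf1 receptor, had differences of 0.02 and -0.10. Il33 lay at 5.77 to 6.17 in PRKO, against 5.61 to 5.88 in PR+/-. Il15 lay lowest among the ligands' differences, at -0.14. Soluble IL-22 binding protein, encoded by Il22ra2, differed by 0.21. The mean signal of Il6, Il5, Il24, Il15 and Il22ra2 lay under 4.09, the olfactory 95th percentile. For Il6 (2.15) and Il5 (2.55) it also lay under the olfactory median of 2.66.

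The ligands' differences, of which 31 of 36 were above 0 (median 0.13) against 22 of 35 for receptors (median 0.03), were set against signal level. All genes were divided by mean signal into 3 groups of 6646, dim, middle and bright. Ligands numbered 26, 10 and 0 in them, and receptors 18, 9 and 8. In the dim group, 41 of 48 interleukin genes (85.4%) had a difference above 0, with a median of 0.13, and so did 83.3% of all 6646 genes of that group, with a median of 0.12. Among 1194 olfactory and vomeronasal receptor genes, which serve the nose and are used here as genes not known for a role in oviduct, 89.0% were above 0 with a median of 0.12, and 18 rose and 0 fell. In the middle group 9 of 10 ligands were above 0 (median 0.10) and 2 of 9 receptors (median -0.12). Of all genes there, 47.4% were above 0 (median -0.01). Level was not matched within that group, where the median signal was 5.22 for ligands and 6.03 for receptors. In some of the other fits described below, Il13, Il16, Il17b, Il17c and Il25 fell under 0. Il18, Il27, Il33 and Il1f8 stayed above 0 in all of them, and Il34 stayed under it. In the bright group the share above 0 was 5 of 9 interleukin genes and 37.8% of all genes.

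**Figure D3:**
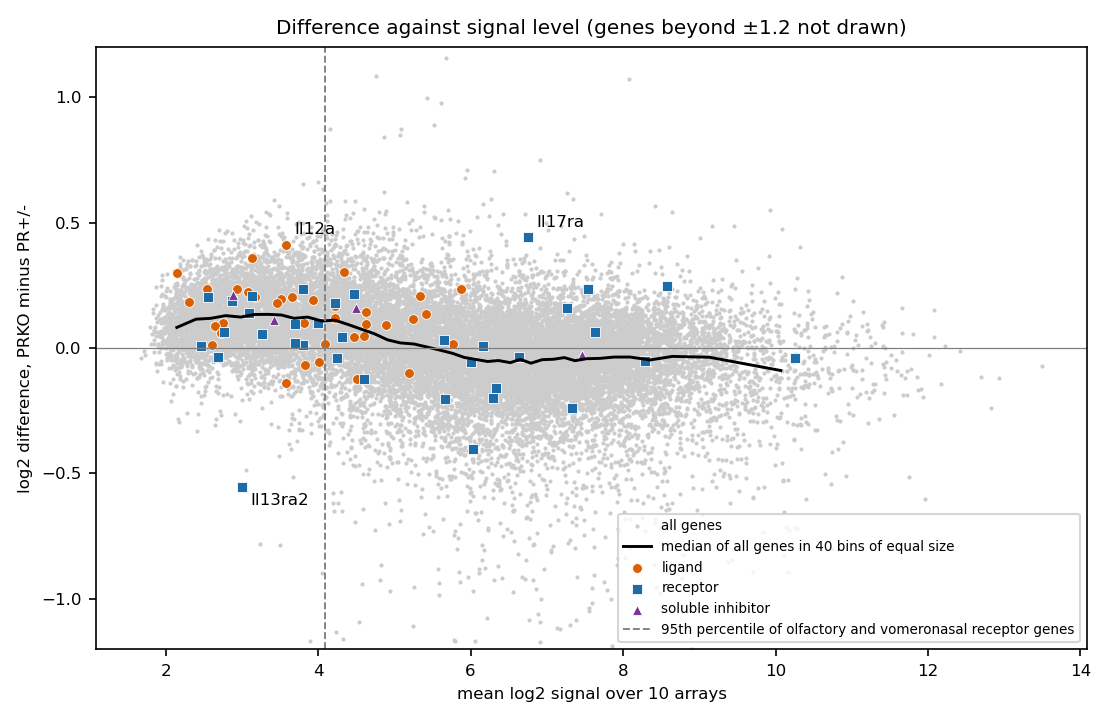
Log2 difference, PRKO minus PR+/-, against mean log2 signal over the 10 arrays, for all genes (grey, those within ±1.2) and interleukin genes by class, with the median of all genes in 40 bins as a line. The line lies above 0 for dim genes and under 0 for bright ones, and most dim interleukin genes lie near it.

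This lean depended on the scaling of the arrays. After quantile normalization 25 of the 48 dim interleukin genes were above 0, with a median of 0.02, and after cyclic loess 28, with a median of 0.03. Both methods even out differences between arrays that follow signal level, so a median near 0 for dim genes is built into them. All 6646 dim genes had a median of 0.01 after either. These values thus do not show where the lean came from, which was not tested. In a fit with the array's interquartile range as a term 27 were above 0, and 0 interleukin genes were called with limma. Over all genes 348 were called in that fit, against 988 without the term. The range was 2.93 to 3.26 in PRKO and 3.20 to 3.37 in PR+/-, so its effect and that of genotype cannot be fully told apart. In that fit the log2 difference was 0.44 for Il17ra (adjusted p = 0.117), -0.63 for Il13ra2 (0.0789) and 0.32 for Il12a (0.285). The fall of Il13ra2 ran against the lean of dim genes. It was -0.68 after quantile normalization and -0.67 after cyclic loess, where Il17ra had 0.52 and 0.49.

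**Figure D4:**
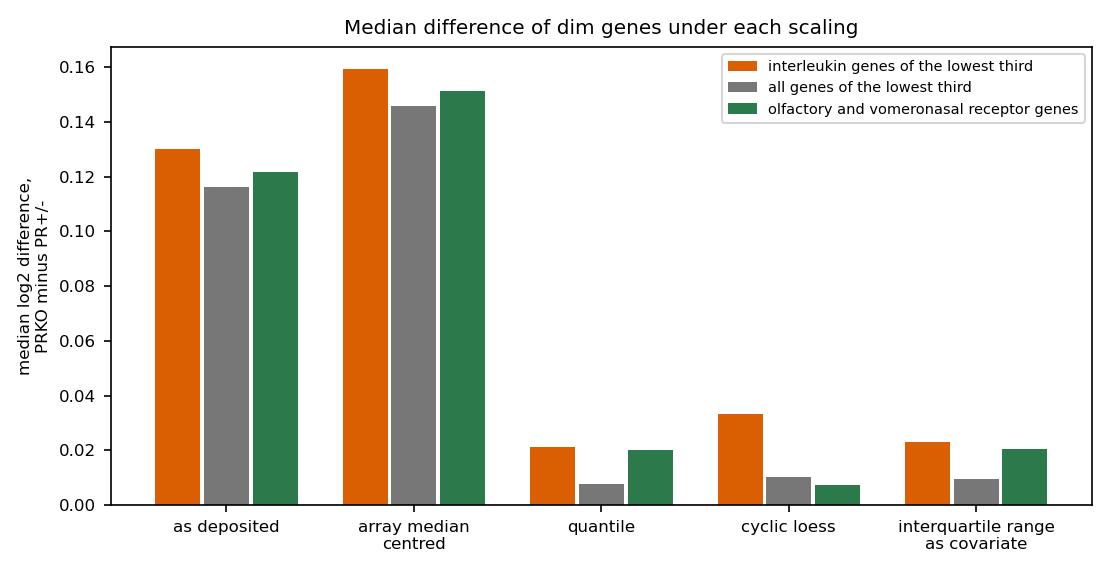
Median log2 difference, PRKO minus PR+/-, of the 48 dim interleukin genes, of all 6646 dim genes and of 1194 olfactory and vomeronasal receptor genes under 5 ways of scaling or fitting the arrays. The medians are 0.12 to 0.16 as deposited or median-centred and at most 0.03 under the other 3. Quantile normalization and cyclic loess even out such differences between arrays by design.

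Calls were read against level in the same way. In the dim group 1 interleukin gene rose and 1 fell of 48, where 1.76% of all genes were called, 1.46% higher and 0.301% lower. In the middle group 0 of 19 were called, where 5.37% of all genes were, 1.19% higher and 4.18% lower. In the bright group 1 of 9, Il17ra, rose, where 7.73% of all genes were called, 0.617% higher and 7.12% lower. The 95th percentile of the olfactory and vomeronasal genes, 4.09, was exceeded by 21 of 35 receptors and by 16 of 36 ligands. Il17ra lay above it, while Il13ra2 and Il12a lay below it. Fitted over the 14592 genes above that level, of which 1141 were called, 39 interleukin genes were tested. The called ones among these 39 were Il17ra (adjusted p = 0.00683) and Il17rb (0.0421), a share not above that of all genes.

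PRKO pools varied more, as all genes did. The SD was larger in PRKO for 49 of 76 interleukin genes (64.5%) and for 74.7% of all genes. By level it was larger in PRKO for 30 of 48 dim, 10 of 19 middle and 9 of 9 bright members, against 71.7%, 73.1% and 79.4% of all genes of those groups. Medians of the members' SD were 0.161 in PRKO and 0.129 in PR+/-.

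Leukocytes are a main source of interleukins and carry many of their receptors. Of 35 leukocyte marker genes measured 0 rose and 0 fell in limma, with a median log2 difference of 0.10. An unadjusted p under 0.05 was found for 7 of the 35, against 21.1% of all genes. A signal at or under the olfactory 95th percentile was found for 19 of them. The summed linear signal of 5 general leukocyte markers (Ptprc, Coro1a, Laptm5, Cd53 and Cd52) was 717 to 773 in PRKO, against 672 to 728 in PR+/-. For 5 T cell markers it was 75.9 to 85.3 against 68.5 to 74.4, for 6 macrophage and dendritic cell markers 493 to 614 against 534 to 585, and for 5 neutrophil markers 70.1 to 97.3 against 69.4 to 79.2. For 3 B cell, 5 natural killer cell and 6 mast cell markers the sums were 35.2 to 45.6, 49.1 to 68.2 and 59.2 to 66.7 in PRKO, against 33.9 to 36.9, 45.5 to 54.0 and 57.0 to 60.9 in PR+/-. Of these lists only T cells separated the genotypes, with 4 of 5 markers in the dim range. Besides smooth muscle, 2 of 5 endothelial markers, Emcn and Pecam1, fell (-0.53 and -0.27). In whole oviducts fewer cells of a type and less RNA per cell cannot be told apart, and the part of cell makeup in the interleukin differences was not tested.

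Genes that act beside the interleukins were taken from 5 lists, of which 58 of 66 genes were measured. None rose and 2 fell (3.45%), against 4.96% of all genes called and 3.87% lower, so the count was not above the background. Socs7, of the family of suppressors of cytokine signalling, was at 6.20, 6.11, 6.18, 6.18 and 5.85 in PRKO, against 6.62, 6.63, 6.74, 6.66 and 6.69 in PR+/-, so that the groups lay well apart. It was 1.48-fold lower (log2 -0.56 ± 0.080, adjusted p = 6.46e-04). Ifngr1, the ligand-binding chain of the interferon gamma receptor, was at 6.93 to 7.21 in PRKO, against 7.30 to 7.48 in PR+/-, with no overlap. It was 1.27-fold lower (log2 -0.35 ± 0.074, adjusted p = 0.0139). Its partner chain Ifngr2 had a difference of -0.27 (adjusted p = 0.0897) and the kinase Tyk2, which serves IL-12 and interferon receptors, one of -0.39 (0.0960).

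By list, 1 of 12 SOCS and other inhibitor genes fell, as did 1 of 14 in a list of other cytokine receptor genes that also holds the ligand gene Tslp and the cytokine subunit gene Ebi3, and 0 passed among 8 further IL-6 family genes, 9 Janus kinases and STAT factors and 15 adaptors and processing genes of the IL-1 and IL-17 pathways. Jak1 and Stat3, which relay the IL-6 family, differed by 0.00 and 0.04, and Stat6, which relays IL-4 and IL-13, by -0.04. The median difference over the 58 genes was -0.03, against 0.03 over all genes, a contrast not matched for level. Of the 58, 29 lay in the bright group, where the median of all genes was -0.04, and 9 in the dim group, where it was 0.12.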

How the data were processed

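Each of the 10 arrays measured 1 pool of whole oviducts. Per the labels' protocols, total RNA was made into biotin-labelled cRNA with the Affymetrix whole-transcript kit. Per the submitters' processing notes the arrays were processed in Partek; its background, normalization and probe summary settings are unstated in the sources used here. The deposited table gives 1 log2 value per probe set and array. The log2 scale was inferred from the range of the values, since no label states it, and every fold rests on it. Array medians lay between 5.20 and 5.28 and the values were not normalized again. The table holds no detection or background values, so the number of arrays and the signal level limit the precision.

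Of 35557 rows, 21789 were paired with 1 symbol in the platform annotation, 1621 with several and 12147 with none. The brightest probe set stood for each of 19938 genes. All 76 members matched RefSeq (GRCm38.p6) by gene ID. The genotypes were set against each other in limma (3.58.1, R 4.3.3) (8 residual and 6.08 prior degrees of freedom), adjusted over all genes by Benjamini-Hochberg. No label says that replicate numbers pair pools, so no block was used. Deviations of same-numbered pools correlated at -0.01 to 0.16. Differently numbered pools were not compared, so these correlations cannot settle whether pools are paired. P-values describe only pool-to-pool spread. The procedure was tested on simulated data with the same SD in both groups and no shift between arrays. That test therefore does not cover the larger spread of PRKO pools or the lean of dim genes.

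Members and lists were chosen with earlier results of these data known. By rule, array values are given for called members and members whose groups did not overlap, and names for the 10 ligands and 15 receptors of highest mean signal, binding partners of called members and called pathway genes. Array values of Il17rb, Il13ra1 and Il1b, the olfactory comparison and other names were chosen after the values were seen.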

Additional observations from a re-analysis of the deposited data

Results flagged for a closer look

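Within each genotype, Dixon's test asked whether the highest or lowest of 5 pools stood apart. It did in 9 of 152 groups (5.92%), where chance gives about 1 in 20. PRKO replicate 5 was low for Il10rb (7.98, the other pools from 8.31) and for Il6ra (6.97, the others from 7.24), and high for Il13ra2 (2.94, the others up to 2.68). PRKO replicate 4 was low for Il3ra (5.90, the others from 6.18) and high for Il1rapl2 (2.66, the others up to 2.45). PRKO replicate 2 was high for Il15 (3.69, the others up to 3.49). In PR+/-, replicate 3 was high for Il10ra (3.99, the others up to 3.77) and low for Il7 (3.60, the others from 3.91), and replicate 4, one of the pools with raised ovarian transcripts, was high for Il18r1 (5.05, the others up to 4.62).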

How the results depend on the processing

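Counts of called genes as deposited were 3 interleukin genes, 1 ligand, 2 receptors, 2, 0 and 1 in the dim, middle and bright groups, and 2 genes of the pathway lists. After quantile normalization, and likewise after cyclic loess, 0 ligands, 1 in the dim group and 2 in the bright group were called. Without the dimmest 30% of genes there were 0 ligands, 0 in the dim group and 1 in the middle, as also over genes above the olfactory level, a setting added after the data were seen. Without the dimmest 50% there were 0 ligands, 4 receptors, 1 in the middle group and 3 in the bright group. Over all genes, 1151 of 13956 were called without the dimmest 30%, and 1176 of 9969 without the dimmest 50%. The variance trend gave 1 in the middle group. The replicate block gave 0 ligands, 1 in the dim group and 4 pathway genes, of which Casp1 rose and Tyk2 fell besides Socs7 and Ifngr1, and Il12a was no longer called (adjusted p = 0.0575). The interquartile range as a covariate gave 0 interleukin genes, 0 ligands, 0 receptors, 0 in the dim and 0 in the bright group, and 1 pathway gene, Socs7. Calls over all genes numbered 348 in that fit, against 988 as deposited. Without the pools highest in ovarian transcripts, and likewise without PRKO replicates 1 and 5 (added later), 1 interleukin gene, Il13ra2, was called, with 0 ligands, 1 receptor, 1 in the dim group and 0 in the bright group. At an adjusted p under 0.1 there were 1 in the middle group and 4 pathway genes, and under 0.01 there were 0 interleukin genes, 0 ligands, 0 receptors, 0 in the dim and bright groups and 1 pathway gene. Leaving out 1 array at a time gave 2 to 5 interleukin genes (5 without PRKO replicate 4, with Il17rb and Il4ra added), 0 to 1 ligands, 2 to 4 receptors, 1 to 2, 0 to 1 and 1 to 2 in the dim, middle and bright groups, and 2 to 3 pathway genes. Across 21 alternative fits Il13ra2 ranged from -0.68 to -0.45 and lost its call with the covariate, and across 24 Il17ra ranged from 0.38 to 0.52 and lost it with the covariate, without the pools highest in ovarian transcripts and without PRKO replicates 1 and 5 (0.38, adjusted p = 0.0501). Filters that removed dim genes left Il13ra2 and Il12a untested. Il17rb was also called with the variance trend (adjusted p = 0.0406) and without PR+/- replicate 2, PRKO replicate 2 or PRKO replicate 4 (0.0335 to 0.0466). It stayed uncalled in 17 of 24 alternative fits. No call changed direction in these fits. Filtered fits tested fewer genes and left-out arrays gave fewer samples; the cause of the other changes was not tested.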
